A study of Rattus norvegicus with 18 samples.

Results

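The question was whether PE, a compound that the sample labels give only by these letters, altered the transcriptional response of H9C2 cells to 50 short high-voltage pulses. It was addressed with 12 of the 18 libraries of the series, 3 in each of 4 groups, all from H9C2, a rat line that was derived from embryonic heart tissue and that the labels call myocardium. NC cells were untreated. ES50 cells were exposed to 50 pulses, each 100 µs long and with a field of 1500 V/cm. The P group had PE at 50 µmol/L for 48 h, and P_ES50 cells received that PE treatment and the same 50 pulses. The interaction is the difference of both responses, (P_ES50 - P) - (ES50 - NC), on the scale of log2(FPKM + 1), where FPKM are the deposited fragment levels, scaled for gene length and depth. A gene is called higher in the interaction when its response to pulses was more positive with PE than without it, and lower when it was more negative, at a Benjamini-Hochberg adjusted p under 0.05. A higher interaction can therefore come from a smaller fall, and a lower one from a smaller rise.

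Microsecond pulses of this strength open pores in the plasma membrane. Ions such as calcium enter, osmotic balance is disturbed, and the membrane is resealed by repair proteins. Cells that survive usually meet oxidative, proteotoxic and mechanical stress, which is read out by transcription factors such as NRF2, ATF4, AP-1 and the YAP/TEAD pair. Mitochondria keep their own small genome, whose mRNAs are transcribed and turned over separately from those of the nucleus.

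Each library held 14004929 to 17247201 reads on genes. Reads on nuclear genes numbered 1230554 to 1466851 in ES50, 7813779 to 8060502 in P_ES50 and 12059244 to 14665855 in NC and P. The precision follows this order, since the median SD of a gene on the log2 scale was 0.237 in ES50, 0.104 in P_ES50, 0.0764 in NC and 0.0787 in P. The deposited scaling puts the typical nuclear gene at the same level in each library and leaves out the loss of nuclear reads. Scaling to total reads instead moved the median interaction of nuclear genes from 0.04 to 1.78. Levels below are therefore relative to the other nuclear genes. The text gives the interaction with scaling to total reads where its direction turned. Rises and falls of genes with pulses are given at the deposited scaling only and can turn too. From NC to ES50 Acta2, for example, rose 2.53-fold at that scaling, while its reads went from 143372 to 35448. Of 11 cardiomyocyte markers, 7 stayed under 1 FPKM in all 12 libraries, among them Myh6, Nppa and Ryr2, so most defining markers of the labelled cell type were near or at 0. Of macrophage markers 7 of 9, of endothelial markers 6 of 7 and of epithelial markers 6 of 7 also stayed under 1 FPKM. Of skeletal myoblast markers 4 of 9 did so, and the summed level of that list was 127.5 to 128.8 FPKM in NC.

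The mitochondrially encoded transcripts showed the interaction at the scale of whole libraries. Reads on mitochondrial genes made up 14.0%, 13.2% and 11.6% of all reads in the NC libraries, and 92.9%, 91.4% and 92.1% in ES50. With PE they made up 5.42%, 5.41% and 5.60% without pulses, and 49.5%, 46.7% and 49.6% with them. No group overlapped with another, and the libraries with both treatments lay between the pulsed and the unpulsed ones. The share was 79.2 percentage points higher in ES50 than in NC and 43.1 points higher in P_ES50 than in P, an interaction of -36.1 points (SE 1.26). As a ratio the order was the other way round, 7.13 without PE against 8.88 with it. On the scale of log2(mitochondrial reads / nuclear reads), which has no upper limit, the increases were 6.31 and 4.03, an interaction of -2.28 (SE 0.14). Each pair of groups separated fully, with an exact two-sided permutation p of 0.1, the smallest that 3 libraries against 3 can give.

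**Figure D1:**
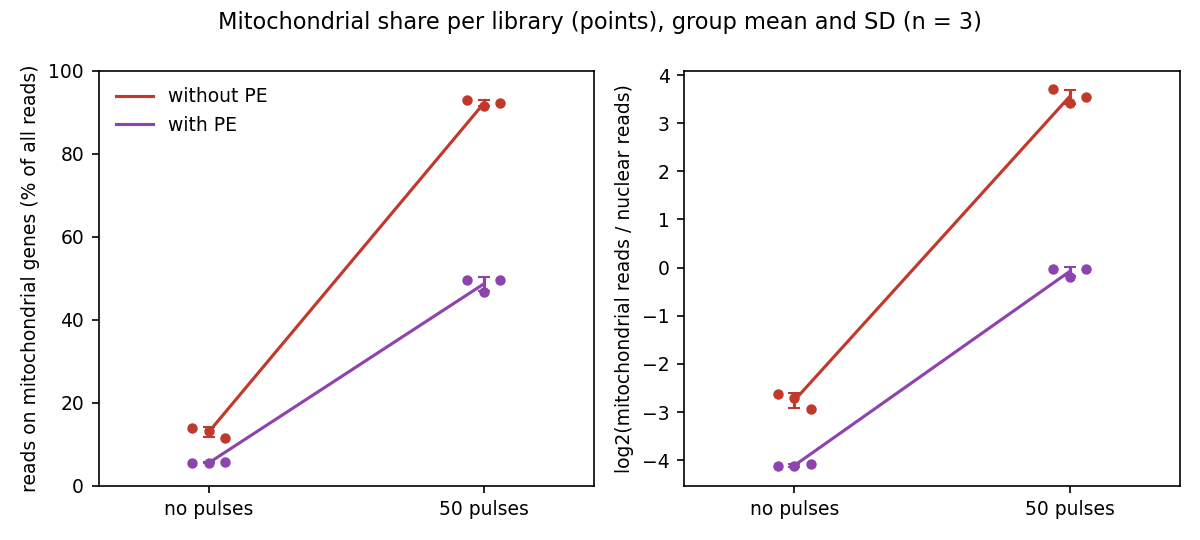
Share of reads on mitochondrial genes in percent (left) and log2 ratio of mitochondrial to nuclear reads (right), without and with 50 pulses, for cells without PE (red) and with PE (purple); points are libraries, lines join group means and bars are SD (n = 3). The share reached 91.4 to 92.9% in ES50 and 46.7 to 49.6% in P_ES50, and the slope on the log2 ratio was flatter with PE.

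All 13 mitochondrially encoded mRNAs were lower in the interaction at the deposited scaling, with a median of -2.38, whereas scaling to total reads gave a median of 0.27 and quantile normalization 0.43. Quantile normalization gives each library the same set of values. It thus fixes the level of such highly ranked mRNAs by rank and cannot measure the size or sign of their interaction. Their values ran from -2.55 for Mt-nd1 to -2.03 for Mt-nd6, a narrow span for transcripts whose levels differ widely. Mt-nd1, a core subunit of respiratory complex I, stood at 3539, 3177 and 2943 FPKM in NC and at 333920, 318070 and 310540 in ES50. In P it stood at 1271, 1202 and 1257 FPKM, and in P_ES50 at 22248, 19534 and 21731. The pulses thus raised it 99.6-fold without PE and 17.0-fold with PE, an interaction of -2.55 (SE 0.10, adjusted p = 6.4e-09) that became 0.09 with scaling to total reads and 2.72 with quantile normalization. Mt-nd6, the single mRNA encoded on the other strand, rose 100.2-fold and 24.7-fold (interaction -2.03, SE 0.15, adjusted p = 1.3e-06; 0.62 with scaling to total reads, 1.57 with quantile normalization). Mt-co1, the catalytic subunit of cytochrome c oxidase, rose 73.3-fold and 15.5-fold (interaction -2.24, SE 0.14, adjusted p = 2.7e-07; 0.40 with scaling to total reads, 0.08 with quantile normalization). Mt-nd4l, another complex I subunit, rose least of the 4 genes described here, 14.3-fold without PE and 2.74-fold with PE, yet its interaction of -2.38 (SE 0.15, adjusted p = 2.4e-07; 0.27 with scaling to total reads, 1.30 with quantile normalization) was like that of the others. At the deposited scaling the response of these mRNAs was thus smaller with PE by a like factor, whatever its size without PE.

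Outside the mitochondrial genome, 3279 of 11555 tested genes were higher in the interaction (28.4%) and 2935 were lower (25.4%). These 2 shares are the background for all counts of list members below. At least a 2-fold difference between both responses was seen for 1692 of the higher and 1007 of the lower genes. The component responses show where this comes from. Without PE the pulses raised 3551 genes (30.7%) and lowered 4410 (38.2%). With PE they raised 1190 (10.3%) and lowered 1149 (9.94%). PE alone raised 238 (2.06%) and lowered 243 (2.1%). The SD of the response over genes was 1.00 on the log2 scale without PE and 0.37 with PE. With scaling to total reads the split was 10511 higher (91%) and 14 lower (0.121%). Of the genes higher at the deposited scaling 3274 stayed higher, whereas of those lower 2648 became higher, 275 were no longer called and 12 stayed lower.

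At the deposited scaling most called genes passed the test for a response to pulses only in the cells without PE. A response that was not called can still be present. Among the 3279 higher genes, 2415 (73.7%) fell without PE and were not called with PE, 420 (12.8%) fell in both arms, and 295 (9%) fell without PE and rose with it. Among the 2935 lower genes, 1965 (67%) rose without PE and were not called with PE, 604 (20.6%) rose in both, and 156 (5.32%) rose without PE and fell with it. Across the 11555 nuclear genes, the 2 responses, which share no library, had a Pearson r of 0.29 and a Spearman rho of 0.33, with a slope of 0.11 for the response with PE on that without. This is a description over genes, which share libraries and depth and are not independent replicates. The ES50 libraries hold the fewest nuclear reads, and the part of this depth in the calls was examined by thinning each library to 1230554 nuclear reads, which left 2430 genes higher and 2060 lower.

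**Figure D2:**
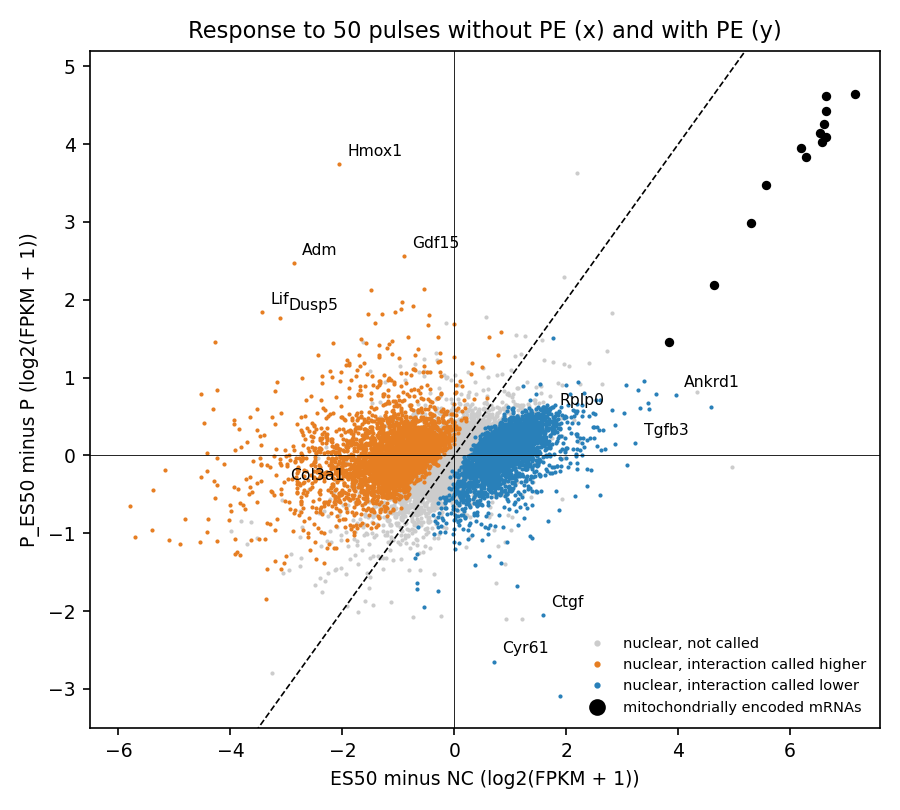
Response to 50 pulses without PE (x axis, ES50 minus NC) and with PE (y axis, P_ES50 minus P) for each tested gene, in log2(FPKM + 1); the dashed line marks equal responses, orange and blue are nuclear genes called higher and lower in the interaction, grey nuclear genes are not called, and black points are the 13 mitochondrially encoded mRNAs. The nuclear cloud is wide along x and narrow along y (SD 1.00 and 0.37), Hmox1, Adm, Lif and Dusp5 lie in the upper left, and Ctgf and Cyr61 in the lower right.

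Among the 12 nuclear genes with the most negative interaction, of those with a mean of at least 5 FPKM and a gene symbol, 5 were lower with both scalings: Ctgf, Cyr61, Amotl2, Ankrd1 and Tgfb3. Ctgf and Cyr61 encode secreted matricellular proteins, Amotl2 a junction protein that binds YAP, and Ankrd1 a stretch-responsive nuclear and sarcomeric protein, and these 4 are widely used as target genes of YAP and TEAD. Tgfb3 encodes a ligand of the TGF-beta family. The 250 bases upstream of their transcription starts are shown because 4 of the 5 are known YAP targets, with the letters GGAATG or CATTCC, the core of the TEAD element on either strand, in capitals. They are taken from RefSeq (GRCr8), where Ctgf is named Ccn2 and Cyr61 is named Ccn1, and run 5′ to 3′ on the gene's strand up to the base before the start.
Ctgf (chr1:22624615-22624864, minus strand): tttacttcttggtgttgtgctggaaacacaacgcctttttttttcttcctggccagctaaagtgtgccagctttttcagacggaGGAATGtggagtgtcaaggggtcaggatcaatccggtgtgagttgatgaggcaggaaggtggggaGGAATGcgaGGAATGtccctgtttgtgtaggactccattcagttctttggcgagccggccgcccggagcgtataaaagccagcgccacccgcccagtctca
Cyr61 (chr2:237225690-237225939, minus strand): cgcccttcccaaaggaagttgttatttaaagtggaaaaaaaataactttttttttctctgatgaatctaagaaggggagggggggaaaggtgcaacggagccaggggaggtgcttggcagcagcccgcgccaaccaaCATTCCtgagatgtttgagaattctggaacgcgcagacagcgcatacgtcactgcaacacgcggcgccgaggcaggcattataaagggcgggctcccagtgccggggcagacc
Amotl2 (chr8:112182376-112182625, plus strand): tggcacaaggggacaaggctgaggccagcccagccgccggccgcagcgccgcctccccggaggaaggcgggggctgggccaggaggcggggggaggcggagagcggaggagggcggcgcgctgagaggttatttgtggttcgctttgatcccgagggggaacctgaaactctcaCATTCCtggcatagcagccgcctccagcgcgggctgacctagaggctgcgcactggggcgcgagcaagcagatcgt
Tgfb3 (chr6:111456947-111457196, minus strand): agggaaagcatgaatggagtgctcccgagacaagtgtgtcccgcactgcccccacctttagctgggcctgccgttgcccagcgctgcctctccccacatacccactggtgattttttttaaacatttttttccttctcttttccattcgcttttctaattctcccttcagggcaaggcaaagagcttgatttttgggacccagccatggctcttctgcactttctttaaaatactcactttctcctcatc
Ctgf holds 3 matches, which begin 166, 101 and 92 bases before the start. Cyr61 holds 1, at 113 bases, Amotl2 holds 1, at 76 bases, and Tgfb3 holds 0. Of 33469 rat promoters of the same length, 12.1% hold at least 1 match, 0.902% at least 2 and 0.0807% at least 3. No overlap with other motifs was searched, and a match describes letters, not binding.

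At the deposited scaling Ctgf, Cyr61 and Amotl2 had opposite responses in the 2 arms, relative to the other nuclear genes. Their reads, summed over the 3 libraries of a group, fell in both arms. From NC to ES50 they went from 7538 to 2246 for Ctgf, 5384 to 869 for Cyr61 and 5037 to 1113 for Amotl2. From P to P_ES50 they went from 18368 to 2365, 17754 to 1497 and 8899 to 1394. Ctgf (Rnor 6.0, chr1:21851660-21854773) stood at 37.8, 37.3 and 38.3 FPKM in NC, at 129, 106 and 112 in ES50, at 82.4, 84.7 and 87.2 in P and at 19.1, 18.5 and 21.4 in P_ES50. The P_ES50 libraries were the lowest and the ES50 libraries the highest, with no overlap. It rose 3.06-fold with pulses alone and with PE fell to 0.232 of its level in P, an interaction of -3.64 (SE 0.10, adjusted p = 8.9e-10; -1.07 with scaling to total reads). Cyr61 (chr2:251529354-251532312) stood at 36.9, 35.9 and 37.9 FPKM in NC, at 61.3, 64.3 and 56.4 in ES50, at 112, 113 and 110 in P and at 18.7, 16.9 and 15.5 in P_ES50. Here the P libraries were the highest, and the P_ES50 libraries lay below all NC libraries. Its interaction was -3.35 (SE 0.10, adjusted p = 8.9e-10; -0.84 with scaling to total reads). Amotl2 (chr8:111209908-111226226) showed the same order as Ctgf, with 14.3, 14.6 and 14.9 FPKM in NC, 35.1, 29.5 and 34.9 in ES50, 23.2, 24.8 and 23.1 in P and 7.31, 6.81 and 6.04 in P_ES50. Its interaction was -2.81 (SE 0.12, adjusted p = 1.3e-08; -0.39 with scaling to total reads).

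Ankrd1 and Tgfb3 were raised strongly by pulses alone and little or not detectably with PE. Ankrd1 (chr1:254726969-254735548) stood at 70.5, 65.8 and 64.1 FPKM in NC, 1025, 1066 and 1053 in ES50, 64.3, 65.8 and 69.5 in P and 116, 106 and 122 in P_ES50. The rise was 15.7-fold without PE and 1.72-fold with PE (interaction -3.18, SE 0.08, adjusted p = 3.6e-10; -0.54 with scaling to total reads). Tgfb3 (chr6:109913757-109935533) stood at 55.3, 50.8 and 48.7 FPKM in NC, 488, 478 and 517 in ES50, 47.7, 47.1 and 44.5 in P and 54.8, 50.4 and 50.6 in P_ES50. Only ES50 stood apart, at 9.58 times NC, while P_ES50 was at 1.12 times P with an adjusted p of 0.077 (interaction -3.08, SE 0.08, adjusted p = 5.9e-10; -0.45 with scaling to total reads). Of the 24 listed targets of YAP and SRF, an actin-sensing factor that shares many of them, 19 were lower and 5 higher (median -0.97), whereas with scaling to total reads 4 were lower and 19 higher (median 1.66).

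**Figure D3:**
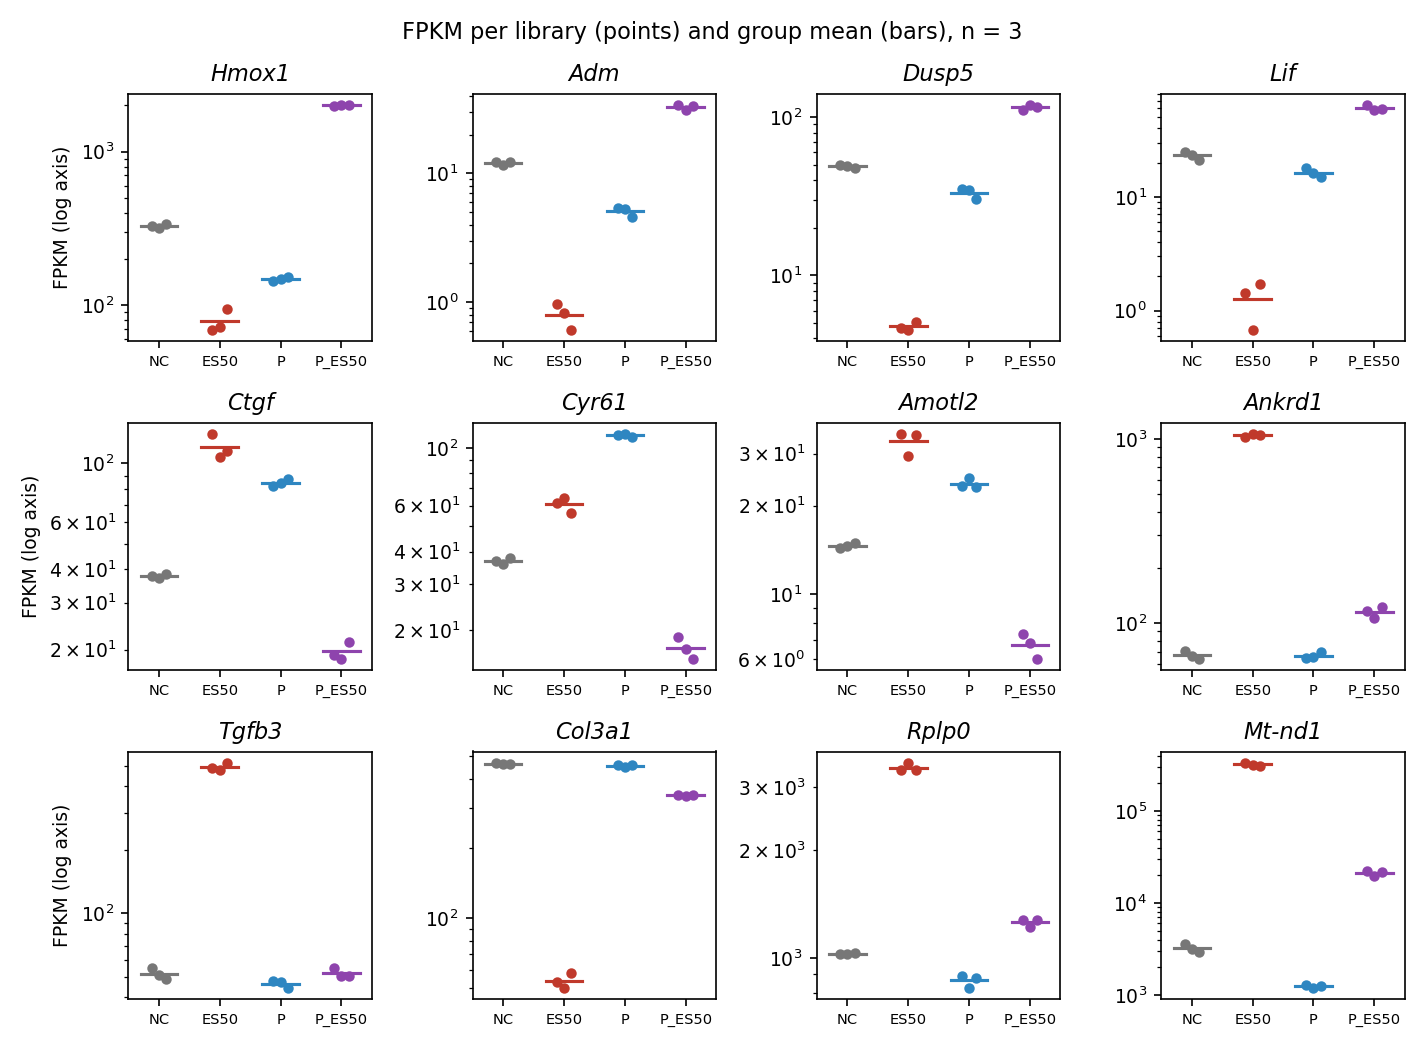
FPKM on a log axis in each of the 12 libraries (points) with group means (bars, n = 3) for 12 genes. In Hmox1, Adm, Dusp5 and Lif the P_ES50 points are the highest and the ES50 points the lowest, in Ctgf and Amotl2 the order is the opposite, and in Ankrd1, Tgfb3, Col3a1, Rplp0 and Mt-nd1 the ES50 points stand farthest from the others.

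The largest positive interaction of a named nuclear gene with at least 5 FPKM on average was that of Hmox1 (chr19:14508616-14515456), the gene of heme oxygenase 1 and a classic target of NRF2. It stood at 326, 321 and 341 FPKM in NC, 69.6, 72.8 and 94.0 in ES50, 144, 148 and 154 in P and 1978, 2019 and 2012 in P_ES50. No groups overlapped, and the combined treatment gave the highest level although each treatment alone gave a lower one than NC. The pulses lowered it to 0.239 of NC without PE and raised it 13.5-fold with PE, an interaction of 5.80 (SE 0.13, adjusted p = 1.7e-10). Of 19 listed NRF2 targets, 12 (63.2%) were higher and 3 (15.8%) lower (median 0.84), against a background of 28.4% and 25.4%. Nqo1, a quinone reductase, stood at 153, 142 and 153 FPKM in NC, 72.8, 70.3 and 63.6 in ES50, 143, 142 and 144 in P and 338, 370 and 359 in P_ES50 (interaction 2.41, SE 0.08, adjusted p = 2.1e-09). Txnrd1, thioredoxin reductase, stood at a mean of 67.2 ± 2.17 FPKM in NC, 25.9 ± 1.05 in ES50, 55.1 ± 1.44 in P and 137 ± 3.81 in P_ES50 (SD, n = 3 each), an interaction of 2.64. The mRNA of NRF2 itself, Nfe2l2, followed the same order with an interaction of 1.71 (SE 0.07, adjusted p = 1.3e-08).

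Adm, Lif and Dusp5, which were among the largest positive interactions, also fell without PE and rose with it. Adm, the vasodilator peptide adrenomedullin, stood at 12.3, 11.7 and 12.3 FPKM in NC, 0.974, 0.822 and 0.614 in ES50, 5.44, 5.25 and 4.63 in P and 34.2, 31.0 and 33.3 in P_ES50. Its interaction was 5.34 (SE 0.13, adjusted p = 3.6e-10), with 8 reads in the 3 ES50 libraries together. Lif, a cytokine of the interleukin 6 family, stood at 25.0, 23.4 and 21.0 FPKM in NC, 1.42, 0.683 and 1.72 in ES50, 17.7, 16.2 and 15.0 in P and 64.4, 58.4 and 59.6 in P_ES50. Its interaction was 5.27 (SE 0.21, adjusted p = 1.1e-08), with 20 reads in ES50. Dusp5, a nuclear phosphatase of ERK, was better covered, with 83 reads in ES50. It stood at 50.1, 49.0 and 47.4 FPKM in NC, 4.66, 4.55 and 5.10 in ES50, 35.1, 34.6 and 30.4 in P and 111, 120 and 116 in P_ES50 (interaction 4.87, SE 0.09, adjusted p = 7.8e-11). In all 3 genes the ES50 libraries were the lowest and the P_ES50 libraries the highest. The stress cytokine Gdf15 rose 11.7-fold with pulses in PE-treated cells, from 0.559, 1.03 and 0.923 to 8.93, 11.2 and 9.35 FPKM, and its interaction of 3.46 (SE 0.28, adjusted p = 2.2e-06) rests on 1 read in ES50.

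Immediate early genes encode fast-response factors such as AP-1 subunits and their feedback inhibitors. Of 30 tested, 21 (70%) were higher and 5 (16.7%) lower (median 1.25), against a background of 28.4% and 25.4%. Fosl1, an AP-1 subunit, stood at 103, 104 and 103 FPKM in NC, 11.9, 16.4 and 16.9 in ES50, 81.4, 77.4 and 76.1 in P and 155, 158 and 158 in P_ES50 (interaction 3.70, SE 0.14, adjusted p = 6.8e-09). Ier3, an early response gene linked to survival, reached 267, 275 and 267 FPKM in P_ES50 against 35.5, 38.8 and 45.1 in ES50 (interaction 3.11, SE 0.12, adjusted p = 8.3e-09). Both were lowered by pulses alone and raised by pulses with PE. Egr1, a zinc finger factor induced by ERK, rose in both arms, 1.85-fold without and 3.28-fold with PE (interaction 0.76, SE 0.19, adjusted p = 0.0063). Its mean was 14.8 FPKM in NC, 27.3 in ES50, 6.80 in P and 22.3 in P_ES50. The larger fold with PE thus started from a lower level, and P_ES50 did not differ detectably from ES50 in the same model (-0.27, adjusted p = 0.11). Fos went the other way, with 1.46-fold of NC in ES50 and 0.672 of P in P_ES50 (interaction -1.02, SE 0.17, adjusted p = 0.0005), a direction that turned to 1.42 with scaling to total reads and a call that was lost with thinned reads (-0.52).

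Genes of the integrated stress response, in which phosphorylated eIF2 alpha favours translation of ATF4, were higher in 21 of 24 and lower in 2 of 24 (median 1.19). The list holds transporters that import amino acids. Slc7a1, a transporter of cationic amino acids, stood at 32.7, 32.2 and 33.3 FPKM in NC, 5.19, 3.75 and 4.13 in ES50, 23.8, 22.9 and 23.2 in P and 32.9, 33.6 and 34.0 in P_ES50 (interaction 3.17, SE 0.12, adjusted p = 6.5e-09). The subunits of the large neutral amino acid exchanger did likewise, with interactions of 2.91 for Slc7a5 and 2.30 for Slc3a2 (SE 0.08 and 0.07). Atf3 and Ddit3, stress factors downstream of ATF4, had smaller interactions of 1.89 (SE 0.28, adjusted p = 0.00017) and 1.09 (SE 0.29, adjusted p = 0.0077). Ddit3 was the less even gene, at 22.4, 49.3 and 35.4 FPKM in ES50. Atf5 was one of the lower members, at 610, 604 and 637 FPKM in ES50 against 130 to 138 in NC and 168 to 172 in P_ES50 (interaction -1.53, which became 1.11 with scaling to total reads).

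Of 23 genes of the unfolded protein response, which matches the folding capacity of the endoplasmic reticulum to its load, 20 were higher and 1 lower (median 0.97). Dnajb9, a luminal co-chaperone, stood at 24.0, 24.7 and 23.0 FPKM in NC, 7.02, 9.07 and 7.07 in ES50, 15.0, 16.8 and 16.4 in P and 25.2, 23.7 and 23.5 in P_ES50 (interaction 2.08, SE 0.13, adjusted p = 2.3e-07). Ern1, which encodes the sensor IRE1, had an interaction of 2.52 and Hsp90b1, a luminal chaperone, one of 1.04 (SE 0.12 and 0.06). The median response of the list to pulses was -1.10 without PE and -0.06 with it, while that of the NRF2 targets was -0.25 and 0.80.

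Genes of the extracellular matrix and of its receptors were almost all higher. Of 32 tested matrix genes 30 were higher and 0 lower (median 1.83), and of 26 integrins and adhesion receptors 23 were higher and 0 lower (median 1.61). Their median response to pulses was -2.07 and -1.90 without PE and -0.27 and -0.16 with PE. Col1a1, a chain of type I collagen, stood at 1427, 1434 and 1485 FPKM in NC, 244, 239 and 257 in ES50, 1692, 1636 and 1610 in P and 1257, 1235 and 1231 in P_ES50. The pulses left 0.17 of the NC level without PE and 0.754 of the P level with PE (interaction 2.14, SE 0.05, adjusted p = 3.1e-10). Col3a1, of type III collagen, stood at 468, 461 and 463 FPKM in NC and at 52.8, 50.2 and 58.1 in ES50, while P held 457, 450 and 458 and P_ES50 held 341, 335 and 338 (interaction 2.66, SE 0.07, adjusted p = 3.6e-10). Fn1, fibronectin, had an interaction of 2.25, Lamc1, a laminin chain, of 2.60 and Col4a2, a basement membrane collagen, of 2.74 (SE 0.04 to 0.07). In Col1a1, Col3a1 and Fn1 the 3 ES50 libraries lay far below the other 9, which differed less among themselves. Itgav, an integrin subunit that binds fibronectin and vitronectin, stood at 37.4, 36.3 and 37.0 FPKM in NC, 3.17, 3.14 and 3.91 in ES50, 28.0, 29.7 and 30.9 in P and 28.1, 28.7 and 29.1 in P_ES50 (interaction 3.07, SE 0.10, adjusted p = 2.5e-09). Nrp2, a co-receptor of semaphorins and VEGF, had an interaction of 2.81, and Adgre5, an adhesion G protein-coupled receptor, one of 4.98 (SE 0.08 and 0.36), the latter with 28 reads in ES50.

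Fibroblast markers overlap with the matrix list, and their summed level moved with it, from 2380 to 2466 FPKM in NC to 548 to 574 in ES50, and from 2575 to 2723 in P to 2237 to 2629 in P_ES50. Dcn, Dpt and Pdgfra of that list stayed under 1 FPKM in all 12 libraries. The part of these markers in the matrix result was not tested. Smooth muscle markers moved the other way, with summed levels of 2493 to 2709 FPKM in NC, 6018 to 6305 in ES50, 2416 to 2535 in P and 3103 to 3179 in P_ES50. In these bulk samples fewer cells of a kind and less RNA per cell cannot be told apart.

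Signalling and transport genes added to the higher group. Of 17 tested genes of NF-kB and cytokine signalling 15 were higher and 0 lower (median 1.72). Ptgs2, the inducible cyclooxygenase, stood at 27.9, 27.5 and 27.6 FPKM in NC, 1.85, 1.65 and 3.02 in ES50, 35.8, 36.6 and 33.1 in P and 47.4, 48.5 and 45.1 in P_ES50 (interaction 3.61, SE 0.18, adjusted p = 4.8e-08). Icam1, an adhesion molecule for leukocytes, had an interaction of 2.62 (SE 0.22). The chemokine Cxcl1 had one of 5.74, with a wide SE of 0.77 (adjusted p = 9.2e-05), since its ES50 libraries ran from 0 to 7.35 FPKM. Of 15 hypoxia targets 11 (73.3%) were higher and 2 (13.3%) lower (median 1.54). Among them Vegfa, the angiogenic growth factor, fell from 62.7, 63.2 and 61.6 FPKM in NC to 10.9, 10.8 and 13.2 in ES50 and rose from 69.3, 76.7 and 73.5 in P to 87.7, 92.3 and 91.4 in P_ES50 (interaction 2.64, SE 0.10, adjusted p = 6.4e-09). Hexokinase 2, Hk2, and the glucose carrier Slc2a1 had interactions of 2.49 and 2.98 (SE 0.10 and 0.26), the latter with 21 reads in ES50. Both also stand on the list of glycolysis, of which 5 of 16 were higher (31.2%) and 6 lower (37.5%). The background is 28.4% and 25.4%. The median of that list was -0.22, 0.35 with quantile normalization and 2.33 with scaling to total reads.

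Of 21 genes of calcium handling and ion pumps, a list of both pumps and channels, 15 (71.4%) were higher and 3 (14.3%) lower (median 0.78). Atp2b1, the plasma membrane calcium pump, stood at 63.2, 61.2 and 60.7 FPKM in NC, 4.85, 3.91 and 5.36 in ES50, 60.1, 58.6 and 58.3 in P and 60.5, 59.0 and 54.3 in P_ES50. It fell to 0.0762 of NC with pulses alone, and with PE the difference did not pass the test (adjusted p = 0.87). The interaction was 3.44 (SE 0.12, adjusted p = 2.9e-09). Piezo1, a mechanically gated cation channel, had an interaction of 2.34 (SE 0.08). Slc8b1, the mitochondrial sodium-calcium exchanger, had one of 3.14 (SE 0.12), with 12 reads in ES50. It belongs to a list of mitochondrial channels and calcium uptake genes, of which 2 of 13 were higher and 5 lower (median -0.17, and 2.13 with scaling to total reads). Plasma membrane repair genes went both ways, with 10 of 28 higher (35.7%) and 13 lower (46.4%), against a background of 28.4% and 25.4%. Their median was -0.15, 0.12 with quantile normalization and 2.20 with scaling to total reads.

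Ribosome biogenesis factors and ribosomal proteins went in opposite directions at the deposited scaling. Of 31 biogenesis genes 21 were higher and 1 lower (median 0.67), among them Ddx21, a nucleolar helicase, with an interaction of 1.86 and Gnl3, nucleostemin, with 1.72 (SE 0.13 and 0.10). Of 57 cytosolic ribosomal proteins 0 were higher and 56 lower (median -0.93), whereas with scaling to total reads 56 were higher and 0 lower (median 1.70) and with quantile normalization the median was -0.20. Rplp0, a stalk protein of the large subunit, stood at 1026, 1024 and 1031 FPKM in NC, 3345, 3511 and 3348 in ES50, 893, 826 and 881 in P and 1275, 1220 and 1279 in P_ES50. It rose 3.31-fold without PE and 1.45-fold with PE (interaction -1.19, SE 0.05, adjusted p = 2e-08), which became 1.45 with scaling to total reads and -0.01 with quantile normalization. Rpsa, of the small subunit, had an interaction of -1.11 (1.53 with scaling to total reads). Several members of this family have near-identical pseudogene copies, so the split of reads between them is uncertain.

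Nuclear genes of the respiratory chain and the mitochondrial ribosome were lower like those of the cytosolic ribosome, at the deposited scaling. Of 31 complex I genes 26 were lower and 0 higher (median -0.90, and 1.70 with scaling to total reads), of 34 genes of complexes II to V 30 were lower and 0 higher (median -0.76, and 1.84), and of 67 mitochondrial ribosomal proteins 53 were lower and 0 higher (median -0.87, and 1.53). Ndufa8, an accessory subunit of complex I, stood at 28.2, 27.9 and 29.9 FPKM in NC, 67.9, 64.4 and 62.5 in ES50, 29.1, 27.4 and 31.8 in P and 32.7, 30.2 and 31.6 in P_ES50. It rose in ES50 alone, with an adjusted p of 0.33 in the PE arm (interaction -1.06, SE 0.09, adjusted p = 2.5e-06, 1.49 with scaling to total reads). Cox8a, a small subunit of cytochrome c oxidase, had an interaction of -1.04 (1.60 with scaling to total reads). Of 24 genes that transcribe mitochondrial DNA and process its RNA 5 were higher and 5 lower, 20.8% each and under the background of 28.4% and 25.4% (median 0.28, 0.00 with quantile normalization and 1.77 with scaling to total reads). Tfam, the packaging and transcription factor of mitochondrial DNA, had an interaction of 0.48 (SE 0.13, adjusted p = 0.009) that was not called with voom weights (0.50). Lrpprc, which stabilizes mitochondrial mRNAs, had one of 0.47 (SE 0.12, adjusted p = 0.007) that was not called with thinned reads (0.51), and Grsf1, of the mitochondrial RNA granules, one of -0.82 (1.57 with scaling to total reads). The porin gene Vdac1 had an interaction of -0.17 that did not pass the test (adjusted p = 0.087, 2.32 with scaling to total reads).

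Contractile genes were mostly lower, 12 of 19 against 1 higher (median -0.84), a direction that also turned with scaling to total reads (median 1.60, with 18 higher). Acta2, smooth muscle actin, stood at 1476, 1388 and 1344 FPKM in NC, 3630, 3512 and 3482 in ES50, 1511, 1432 and 1467 in P and 1898, 1848 and 1856 in P_ES50 (interaction -0.99, SE 0.05, adjusted p = 1.1e-07, 1.65 with scaling to total reads). Tagln, an actin-binding protein of the same cells, had one of -0.91 and Tpm1, tropomyosin 1, one of -1.03 (1.74 and 1.60 with scaling to total reads). Lmod1, a nucleator of actin in smooth muscle, and Tnnt2, cardiac troponin T, had -1.82 and -1.44 (0.65 and 1.06 with scaling to total reads). Synpo2l and Palld, actin-bundling proteins, were at 35.3, 33.5 and 29.6 and at 77.3, 79.5 and 73.1 FPKM in ES50 and under 10 FPKM in the other 9 libraries. Their interactions of -2.81 and -2.78 became -0.29 and -0.21 with scaling to total reads and were then not called. Rab13, a GTPase of junction traffic, had -2.88 (-0.29, then not called), and Tp53inp2, an autophagy protein, -2.49 (0.13 with scaling to total reads). Nppb, a natriuretic peptide used as a hypertrophy marker, stood at 0.906 to 3.67 FPKM over the 12 libraries and did not pass the test (interaction -0.53, adjusted p = 0.098), but it did without P_ES50 replicate 1 (-0.71). With scaling to total reads its interaction was 0.39 and not called.

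Lists of cell death and chaperone genes held members called in both directions, against a background of 28.4% higher and 25.4% lower. Of 21 BCL2 family and caspase genes 7 (33.3%) were higher and 8 (38.1%) lower (median 0.08, -0.23 with quantile normalization and 1.88 with scaling to total reads). The pro-apoptotic members Bax, Bok and Pmaip1 had interactions of -0.66, -1.60 and -1.39, which became 1.93, 0.92 and 1.11 with scaling to total reads, and Apaf1, the apoptosome scaffold, had one of 1.47. Bcl2 had 3 reads in the 3 ES50 libraries together, so no fold against ES50 is given. Of 22 p53 targets 10 (45.5%) were higher and 5 (22.7%) lower (median 0.49). Gadd45a, a growth arrest gene, stood at 87.2, 84.0 and 85.5 FPKM in NC, 53.4, 49.6 and 52.1 in ES50, 51.6, 54.7 and 54.8 in P and 113, 121 and 118 in P_ES50 (interaction 1.83, SE 0.06, adjusted p = 3.5e-09). Its relative Gadd45g took the opposite order, with 114, 93.8 and 106 FPKM in ES50 and 20.9, 22.6 and 22.6 in P_ES50 (interaction -2.53, SE 0.11, adjusted p = 2.6e-08), a difference that became 0.04 with scaling to total reads. Among 19 cytosolic chaperones 6 (31.6%) were higher and 5 (26.3%) lower (median 0.00, and 2.29 with scaling to total reads), with Hspb1 and Cryab, small heat shock proteins, at -0.98 and -1.19 (1.65 and 1.43 with scaling to total reads, and -0.08 for Hspb1 with quantile normalization, then not called) and the co-chaperone Bag3 at 0.92. The inducible Hspa1b stayed under 2 FPKM in all 12 libraries, with an interaction of 0.09 (adjusted p = 0.82). Of 14 genes of necroptosis, pyroptosis and ferroptosis 4 were higher and 4 lower (median 0.03, and 2.26 with scaling to total reads), among them Tfrc, the transferrin receptor, at 2.50 and Ncoa4, the ferritin adaptor, at -1.66 (0.86 with scaling to total reads).

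Further lists were read against the same background. Lysosome and autophagy genes were higher in 16 (59.3%) and lower in 6 (22.2%) of 27 (median 0.74), with Psap, the precursor of the saposins, at 1.86. TGF-beta targets were higher in 10 (62.5%) and lower in 4 (25%) of 16 (median 0.67). Cholesterol synthesis genes were higher in 6 (25%) and lower in 7 (29.2%) of 24 (median 0.14), near the background of 28.4% and 25.4%. Interferon response genes were higher in 2 (14.3%) and lower in 6 (42.9%) of 14 (median -0.59, and 1.09 with scaling to total reads). Mitotic genes, with 5 of 27 higher and 5 lower, had shares under the background of 28.4% and 25.4%. Their median was -0.07, and 2.05 with scaling to total reads, and the proliferation marker Mki67 was at 1.09. Proteasome genes were higher in 3 (9.38%) and lower in 12 (37.5%) of 32 (median -0.20, 0.01 with quantile normalization and 2.33 with scaling to total reads).

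**Figure D4:**
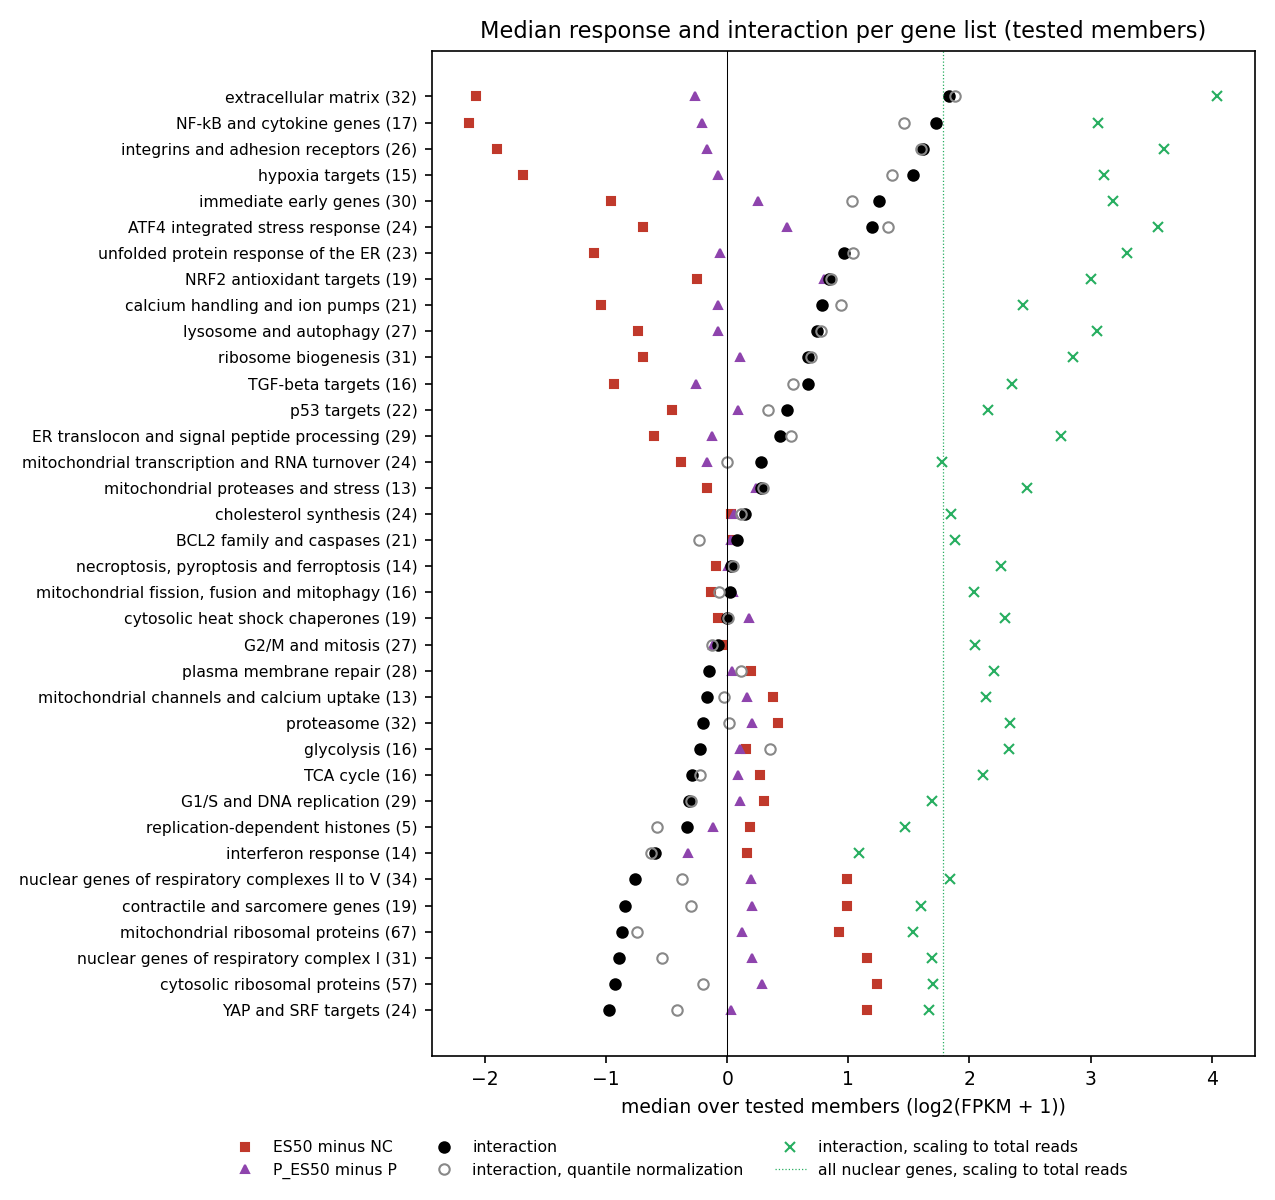
Median over the tested members of each gene list (number in brackets) of the response without PE (red squares), the response with PE (purple triangles) and the interaction (black circles), in log2(FPKM + 1), with the interaction after quantile normalization (open circles) and with scaling to total reads (green crosses; dotted line, median of all nuclear genes, 1.78). Lists of cell type markers, of mitochondrially encoded mRNAs and with under 5 tested members are not drawn. The medians drawn run from -0.97 for YAP and SRF targets to 1.83 for the extracellular matrix, and the responses with PE lie close to 0, from -0.33 to 0.80.

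Small nucleolar RNAs are intron-derived guides of ribosomal RNA modification. Of 228 tested 115 (50.4%) were higher and 1 lower (median 1.67), but 163 of the 228 had 0 reads in all ES50 libraries, so their fitted values depend on the pseudocount and are no bounds. Of 157 miRNA genes 50 were higher and 3 lower (median 1.10), with 101 at 0 reads in ES50, and of 85 snRNAs 14 were higher and 6 lower (median 0.62), with 57 at 0. Many of these short RNAs passed the filter only through the groups in which they were high, so these counts support nothing about the classes. SNORD79 stood at 53.9, 46.1 and 65.6 FPKM in NC and 50.3, 23.9 and 31.4 in P_ES50 and had 0 reads in ES50. Against a floor of 3 reads over the group, its mean in NC was at least 11.3-fold higher than in ES50. SNORD25, with 35.2, 47.9 and 41.0 FPKM in NC and 0 reads in ES50, was at least 6.96-fold higher in NC by the same floor. SNORD74, which lies near SNORD79 on chromosome 13, and SNORD19, which lies within Gnl3 on chromosome 16, had 1 read each in ES50. The libraries were made from poly(A)-selected RNA with selection for fragment size, and mature forms of such short RNAs lack a poly(A) tail.

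Gene length went with the interaction in a graded way. Among coding genes with at least 5 FPKM on average, the median interaction was -0.67 in the quintile with lengths of 57 to 1266 bases, -0.29, -0.02 and 0.19 in the next 3, and 0.55 in the quintile with 3624 to 24116 bases. The gradient lay mostly in the arm without PE, where the median response ran from 0.84 to -0.61, against 0.20 to -0.05 with PE. Over all tested nuclear genes, 16.2% of the shortest quintile and 48.9% of the longest were higher, and 33.8% and 13.5% were lower. The median interaction of these all-gene quintiles ran from -0.28 in the shortest to 0.45 in the longest, and from 1.56 to 1.94 with scaling to total reads. The lists follow this order in part, since ribosomal and respiratory genes are short and matrix and adhesion genes are long, and the part of length, or of RNA quality that could move with it, in the results above was not tested.

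**Figure D5:**
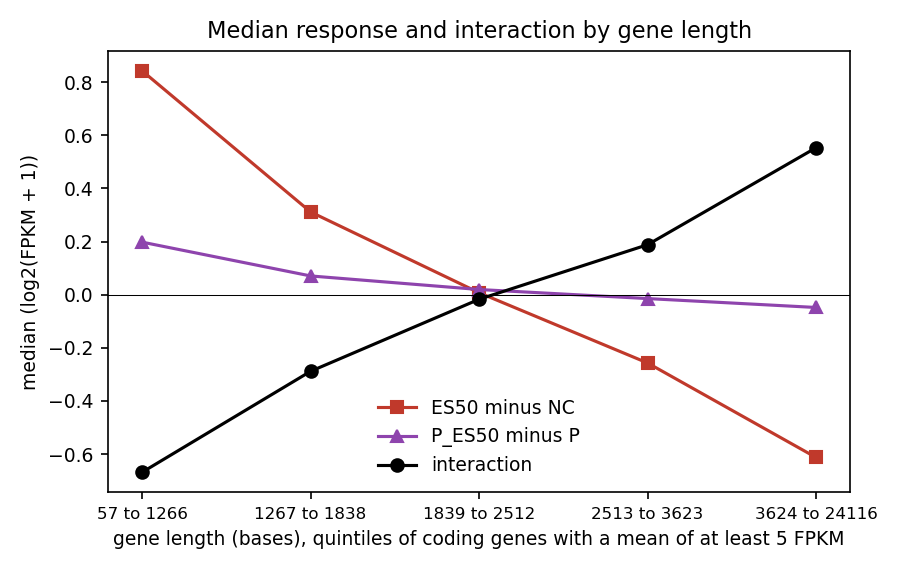
Median response to 50 pulses without PE (red) and with PE (purple) and median interaction (black), in log2(FPKM + 1), over quintiles of gene length in bases among coding genes with a mean of at least 5 FPKM. The interaction rises from -0.67 in the shortest to 0.55 in the longest quintile, and the response without PE falls from 0.84 to -0.61.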

How the data were processed

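Poly(A)-selected RNA of H9C2 cells was sequenced, and the authors deposited 1 table of FPKM for 32545 genes in 18 libraries, with gene lengths, biotypes and coordinates of Rnor 6.0, per the file headers and the submitters' processing notes. The sources used here do not give the aligner, counter, annotation release or strand setting. FPKM times gene length, divided by the smallest step, gave whole reads for 100% of values (tolerance 0.01). From these reads the depth, the mitochondrial share and floors of 3 reads were computed, which cover counting error only. Groups and replicate numbers come from the labels, which do not say whether replicates were separate cultures, so p-values measure the spread between these libraries only. No 2 replicates of a group agreed within sampling noise (chi-square of 3.03 to 5.66 per gene).

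Genes with at least 1 FPKM in at least 3 of the 12 libraries were tested (11589, of which 34 were mitochondrial) with limma 3.58.1 in R 4.3.3 on log2(FPKM + 1), with a mean-variance trend and Benjamini-Hochberg adjustment over all tested genes. Values on this scale understate changes of low genes, while folds in the text are ratios of mean FPKM. In data simulated for this interaction among 11770 genes, 16%, 66%, 94% and 100% of 50 genes each changed 1.5-, 2-, 4- and 8-fold were recovered, and 0.389% of 11570 unchanged genes were called. The changed genes were drawn from those with a mean of at least 5 FPKM and at least 1 FPKM in each group, with a fixed dispersion. These recovery rates therefore do not cover genes near 0 in ES50. Genes were named if they were among the 12 largest changes in each direction with a mean of at least 5 FPKM and a proper symbol, among the 12 that also held with scaling to total reads, mitochondrially encoded, among the 4 smallest p of a list, or on a fixed list of 22. Of the fixed genes, Adra1a, Adra1b, Myh7 and Ppargc1a did not pass the filter, and Mcl1 was not analysed here. Members of a list are those tested, and symbols that the table holds more than once were left out. The members and lists were chosen with earlier results of these data known. Lists of lymphocyte markers and nuclear-retained RNAs had 0 tested members. Promoters come from RefSeq (GRCr8), which has no entry used here for Ankrd1. Other pseudocounts, filters, scalings, weights, depths and sets of libraries were tried as alternatives. Some genes under the naming rule are not reported here.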

Additional observations from a re-analysis of the deposited data

Results flagged for a closer look

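The interaction tests whether the response to 50 pulses differs with and without PE. At the deposited scaling 3279 nuclear genes were higher and 2935 lower, and the median of the mitochondrially encoded mRNAs was -2.38. The counts are the genes that passed this test and are no further support for it. With scaling to total reads they were 10511 and 14, and the mitochondrial median was 0.27. With quantile normalization, which fixes values by rank, that median was 0.43. Among all nuclear genes called at the deposited scaling, 295 of the higher (9%) fell without PE and rose with it at that scaling. Of the lower, 156 (5.32%) rose without PE and fell with it. The genes named in the text were chosen in part by the size or p of their interaction, so their share is no estimate for all genes. Of these named genes, 28 were called in opposite directions in the 2 arms at the deposited scaling. The directions in each arm can differ with scaling to total reads. From P to P_ES50 the reads of Hmox1 rose from 18584 to 138953, whereas those of Bag3 fell from 14313 to 9063. With pulses alone 20 fell that rose with pulses and PE, here with their interaction: Hmox1 (5.80), Adm (5.34), Lif (5.27), Dusp5 (4.87), Fosl1 (3.71), Ptgs2 (3.61), Gdf15 (3.46), Slc7a1 (3.17), Ier3 (3.11), Slc7a5 (2.91), Nrp2 (2.81), Txnrd1 (2.64), Vegfa (2.64), Nqo1 (2.41), Slc3a2 (2.30), Dnajb9 (2.08), Atf3 (1.89), Gadd45a (1.83), Nfe2l2 (1.71) and Bag3 (0.92). The fall of Gdf15 rests on 1 read in ES50 and a low level in NC. The other 8 rose with pulses alone and fell with pulses and PE: Ctgf (-3.64), Cyr61 (-3.35), Amotl2 (-2.81), Sertad4 (-2.58), Gadd45g (-2.53), Polm (-2.45), Fos (-1.02) and Grsf1 (-0.82). All 8 had fewer reads in ES50 than in NC, so their rise is relative to the other nuclear genes. Sertad4, a protein with a SERTA domain, and Polm, a repair polymerase, stood at 25.3 ± 3.53 and 16.1 ± 2.79 FPKM in ES50 and at 4.63 ± 0.685 and 4.09 ± 0.919 in P_ES50 (SD, n = 3). With scaling to total reads their interactions were -0.23 and -0.24 and were not called, that of Gadd45g was 0.04 and not called, and those of Fos and Grsf1 were 1.42 and 1.57.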

How the results depend on the processing

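Under other pseudocounts, filters, weights, prior variances and depths, scaling to nuclear reads and a fit of all 18 libraries the nuclear counts ranged from 2249 to 3655 higher and from 2060 to 3308 lower, and leaving out each library in turn gave 2976 to 3586 higher and 2629 to 3221 lower, with a mitochondrial median of -2.46 to -2.29 and a difference of shares of -36.6 to -35.1 points. Scaling to total reads gave 10511 higher and 14 lower and a mitochondrial median of 0.27, and quantile normalization gave 2847 higher, 3238 lower and a median of 0.43. The share of summed FPKM in place of reads gave -16.5 points. With scaling to total reads 25 named genes changed sign: Acta2 1.65, Atf5 1.11, Bax 1.93, Bok 0.92, Cox8a 1.60, Cryab 1.43, Fos 1.42, Gadd45g 0.043, Grsf1 1.57, Hspb1 1.65, Lmod1 0.65, Mt-co1 0.40, Mt-nd1 0.091, Mt-nd4l 0.27, Mt-nd6 0.62, Ncoa4 0.86, Ndufa8 1.49, Pmaip1 1.11, Rplp0 1.45, Rpsa 1.53, Tagln 1.74, Tnnt2 1.06, Tp53inp2 0.13, Tpm1 1.60 and Vdac1 2.32, of which Gadd45g, Mt-nd1, Mt-nd4l and Tp53inp2 were not called in the new direction. With quantile normalization Mt-co1 0.084, Mt-nd1 2.72, Mt-nd4l 1.30 and Mt-nd6 1.57 changed sign, of which Mt-co1 was not called. That setting fixes values by rank, so it cannot measure the interaction of these highly ranked mRNAs. With the replicate number as a block, 3207 genes were higher and 2878 lower, and no named gene changed its call. Same-numbered libraries correlated at -0.10 to 0.03 after removal of group means, so the numbers do not pair them. Thinning to equal nuclear depth ended the calls of Bcl2 (1.16), Fos (-0.52) and Lrpprc (0.51), voom weights that of Tfam (0.50), and quantile normalization those of Hspb1 (-0.08) and Rplp0 (-0.01). Nppb was called without P_ES50 replicate 1 (-0.71) and with quantile normalization (-0.92), and Hspa1b with scaling to total reads (0.95). Besides the 25 genes above, Nppb, which was called with neither scaling, also changed sign with scaling to total reads (0.39). Apart from the scalings and thinning, the cause of these changes was not tested. The 1230554 to 1466851 nuclear reads of ES50 limit what can be said of low genes.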
